A study of Homo sapiens with 6 samples.

Results

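The aminoacyl-tRNA synthetases of OVCAR8 cells, the cytosolic and the mitochondrial enzymes, were examined together with the 3 scaffold proteins of the multi-tRNA synthetase complex. The members were a list of 39 genes, chosen by function with earlier results of these data known, out of 14930 genes in the deposited table. Of these, 38 reached a value of 10 in 2 or more of the 6 samples and were tested: 20 cytosolic synthetases, 15 mitochondrial synthetases and the 3 scaffold proteins AIMP1, AIMP2 and EEF1E1. PARS2, the mitochondrial prolyl-tRNA synthetase, stayed below this minimum, with values of 5 and 4 in Ctrl, 4 and 7 in DZNep, then 6 and 6 in shEZH2 samples, and was not tested.

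OVCAR8 is a cell line labelled as derived from high grade serous ovarian cancer. RNA-Seq covered 3 groups of 2 replicates, all collected after 72 hours: control cells (Ctrl), cells that received DZNep, and cells with an EZH2 hairpin induced by doxycycline (shEZH2). The methods give the doses as 5 μM DZNep and 1 μg/mL doxycycline, whereas the labels give the same numbers in mM and mg/mL. DZNep inhibits S-adenosylhomocysteine hydrolase, so it acts on many methyltransferases and lowers EZH2 protein, while the hairpin is directed at EZH2. Whether the hairpin also acted on other transcripts was not tested. The labels list DMSO as the vehicle and do not say whether the control cells carried the hairpin construct or received doxycycline. The effects of doxycycline, of the hairpin line and of EZH2 silencing therefore cannot be told apart, and neither the labels nor the methods say that replicates came from separate cultures. The p-values below measure only the spread between these samples, which may be technical.

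An aminoacyl-tRNA synthetase joins an amino acid to its tRNA, the step at which the genetic code is read. Human cells keep separate nuclear genes for most of the cytosolic and mitochondrial enzymes, and the mitochondrial enzymes serve the few proteins of the respiratory chain that are encoded in mitochondrial DNA. KARS and GARS serve both compartments from 1 gene each, and mitochondrial glutaminyl-tRNA is made by amidation, so QARS has no mitochondrial partner gene. Class I and class II enzymes have unrelated catalytic folds. In the cytosol 8 of the synthetases (DARS, EPRS, IARS, KARS, LARS, MARS, QARS and RARS) sit in a complex held together by the 3 scaffold proteins. Many cytosolic synthetase genes are known targets of ATF4, the transcription factor of the amino acid response, which binds C/EBP-ATF response elements (CARE).

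Matches to this element in the promoters are shown first, because the members differ in whether they hold one. RefSeq windows from 250 bases before to 50 after the start site (GRCh38.p14) were found for 33 of the 39 genes, 16 cytosolic and 14 mitochondrial ones among them. TGATGNAAN, searched on both strands, was present in 7 of the 16 cytosolic genes and 1 of the 14 mitochondrial genes, against 3.61% of 35116 windows of the same length. A gene with several windows was counted once if any of them held a match. The matches are printed 5′ to 3′ on the strand of the gene with 8 bases on each side, and capitals mark the element, which is read as its reverse complement where it lies on the opposite strand.
AARS, chr16:70289678-70289702, minus strand: ttctcgcaGTTGCATCAgccaagtt
CARS, chr11:3057410-3057434, minus strand: gggcggcgGTTGCATCAgattctag
GARS, chr7:30594836-30594860, plus strand: acgcggcgATTTCATCAtgctccga
IARS, chr9:92293695-92293719, minus strand: ttcagcgcGTTGCATCAcctccgtg
MARS, chr12:57488055-57488079, plus strand: cggttccgGTTGCATCAgcgaggga
NARS, chr18:57621806-57621830, minus strand: acgctctcTGATGCAACgccggaat
TARS, chr5:33440958-33440982, plus strand: gcctttcgATTGCATCAgctggtcc
YARS2, chr12:32756078-32756102, minus strand: cacactgcTGATGGAAAaattaagt
The letters GTTGCATCA stood in 4 of the 7 cytosolic genes (AARS, CARS, IARS and MARS). The first base of the match lay between 34 bases before the start site and 15 bases after it in the cytosolic genes other than AARS, where it lay at position -188.

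Other promoter matches are shown for the pair HARS and HARS2 and for MARS2, whose values are described below. HARS and HARS2 lie head to head, with RefSeq start sites 85 bases apart at positions 140691370 and 140691455 of chromosome 5. The interval between them holds CCGGAAGT, a core recognised by ETS factors, at 2 places, 1 beside each start site, read here on the HARS2 strand with the core in capitals.
HARS side, chr5:140691364-140691387, plus strand: caaggatgACTTCCGGctatcgag
HARS2 side, chr5:140691439-140691462, plus strand: ggctcctcCCGGAAGTgccgaagc
CCGGAAGT on either strand was found in 4.14% of all windows, in 5 of the 16 cytosolic and in 3 of the 14 mitochondrial genes. The 40 bases before the MARS2 start hold an NRF1-type palindrome and the E-box CACGTG, both in capitals.
MARS2, chr2:197705329-197705368, plus strand: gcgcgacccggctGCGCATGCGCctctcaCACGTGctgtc
GCGCATGCGC was found in 1.24% of all windows and in MARS2 alone among the members, and CACGTG in 7.26% of windows, in 1 cytosolic and 3 mitochondrial genes. None of these motifs overlapped another in the stretches shown.

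The values in the table are whole numbers that sum to between 999956 and 1000068 in each sample, so they are scaled and are not read counts, and the depth is unknown. Sample values below are given as deposited. Where groups are said to overlap or to be apart, this describes the samples and is not a test. The share of all tested genes whose groups were apart was not counted. Fold changes are differences of log2(value + 1) after rescaling with TMM factors of 0.920 to 1.116, and a gene was called higher or lower at a Benjamini-Hochberg adjusted p under 0.05 from limma over 9671 tested genes. EZH2 had values of 36 and 42 in Ctrl, 26 and 26 in DZNep, then 18 and 18 in shEZH2 samples, and was called lower in both treatments. The call was lost without either shEZH2 replicate in both treatments (limma adjusted p up to 0.092 with DZNep and 0.21 with shEZH2), and with DZNep also without Ctrl replicate 2 or DZNep replicate 2. The shEZH2 replicates differed less than the others: the standard deviation across genes of the log2 difference between replicates was 0.14, against 0.43 in control and 0.45 in DZNep samples. Of 10 markers fixed for ovarian serous carcinoma, 8 were in the table and 5 (KRT7, KRT8, KRT18, MSLN and PAX8) reached 10 in 2 samples, whereas WT1 stood at 1 to 2, CDH1 at 0 to 8 and EPCAM at 5 to 12. The summed values of these markers were 3213 and 2577 in Ctrl, 8592 and 7408 in DZNep, then 3558 and 3553 in shEZH2 samples. Of 7 markers of leukocytes, endothelium and muscle, 4 were in the table, with sums of 80 and 71, 37 and 37, and 45 and 41, carried mainly by CD68 at 15 to 70, with DES at 5 to 16, MYH11 at 1 to 4 and VWF at 0 to 2. In RNA from whole cultures, fewer cells of a type and less RNA per cell cannot be told apart. The part of these differences in the results below was not tested.

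With DZNep, the cytosolic synthetases were lower more often than higher, and the mitochondrial synthetases moved in both directions. Of the 20 cytosolic genes 8 were called lower, where 20.4% of all tested genes were, and 1 was called higher, where 22.4% of all genes were. Of the 15 mitochondrial genes 5 were called higher and 3 lower. Taken in both directions, 45.0% of the cytosolic and 53.3% of the mitochondrial genes were called against 42.75% of all tested genes, so that the number of changed members was near the background. The median log2 fold change was -0.42 in the cytosolic and 0.17 in the mitochondrial set, against 0.02 over all tested genes. The difference between the sets was not tested. By the rule of the study's methods, an absolute log2 fold change above 1 with an unadjusted p under 0.05, HARS was higher and AARS and LARS lower among the cytosolic genes, and 4 mitochondrial genes were higher and 1 lower, where 22.3% of all genes passed in either direction. In the medians of single samples, the cytosolic set stood at -0.45 and -0.45 in the DZNep replicates and at 0.04 and -0.04 in the controls, and the mitochondrial set at 0.32 and 0.25 against 0.11 and -0.11.

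**Figure D1:**
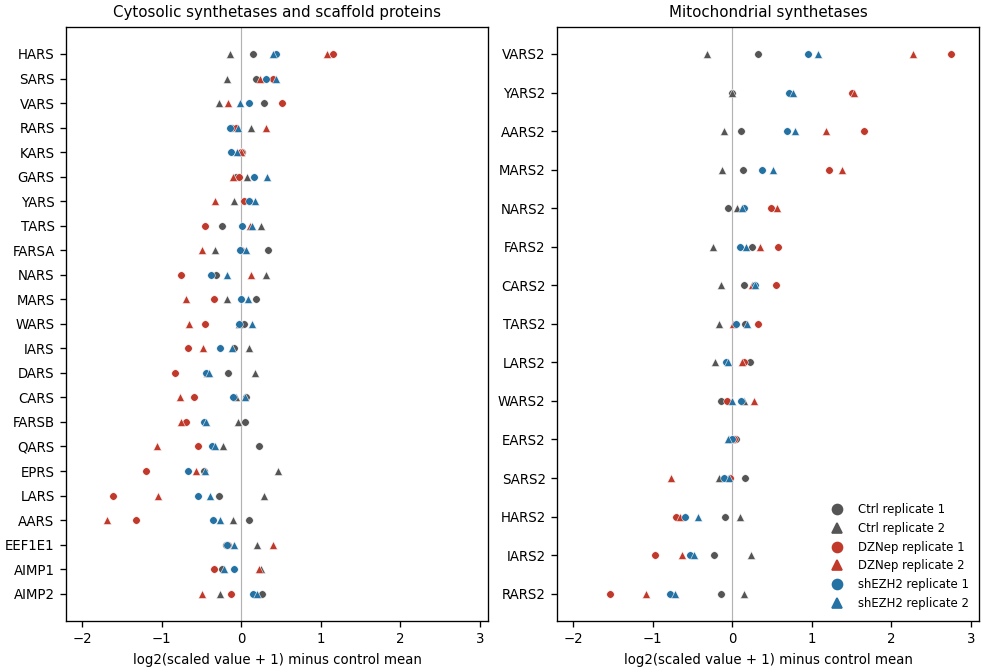
log2(scaled value + 1) of each tested member in each of the 6 samples, minus the mean of the control samples, with symbols for replicate 1 (circle) and replicate 2 (triangle) and members ordered by their change with DZNep. VARS2, YARS2, AARS2, MARS2 and HARS lie to the right of their controls in both DZNep samples, and AARS, LARS and RARS2 to the left, with the shEZH2 samples between the controls and DZNep for each of these 8 genes.

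The largest cytosolic decrease was in AARS, the alanyl-tRNA synthetase, a class II enzyme outside the complex (chr16:70251983-70289707, minus strand, gene positions from GENCODE v44). Its values were 590 and 572 in control and 222 and 206 in DZNep samples, so that both DZNep samples lay far below both controls. The log2 fold change was -1.51 (standard error 0.18, n = 2, limma adjusted p = 0.00062). LARS, the leucyl-tRNA synthetase, which also acts as a leucine sensor of mTORC1, fell from 176 and 292 to 71 and 125 (log2 fold change -1.33, standard error 0.25, n = 2, limma adjusted p = 0.0044). The groups did not overlap for LARS, although its control values lay far apart. QARS, the glutaminyl-tRNA synthetase of the complex, fell from 410 and 334 to 243 and 203 (log2 fold change -0.81, limma adjusted p = 0.022). FARSB, the beta subunit of phenylalanyl-tRNA synthetase, fell from 58 and 61 to 35 and 40 (log2 fold change -0.73, limma adjusted p = 0.0092). The alpha subunit FARSA, which pairs with FARSB in a tetramer, had overlapping values of 77 and 54 against 62 and 52 (log2 fold change -0.25, limma adjusted p = 0.47). With transcript length and GC content corrected for, the calls of the subunits changed places, with FARSB at -0.37 (limma adjusted p = 0.21) and FARSA at -0.56 (limma adjusted p = 0.0018).

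The other cytosolic genes called lower moved less. CARS, the cysteinyl-tRNA synthetase, went from 142 and 145 to 91 and 96 (log2 fold change -0.68, limma adjusted p = 0.012). DARS, the aspartyl-tRNA synthetase of the complex, went from 85 and 120 to 54 and 86 (log2 fold change -0.63, limma adjusted p = 0.037), and its groups were apart only after scaling. The isoleucine and tryptophan enzymes, IARS and WARS, completed this group. IARS went from 232 and 296 to 158 and 215 (log2 fold change -0.58, limma adjusted p = 0.024). WARS, which is also an interferon-induced gene, went from 120 and 128 to 87 and 90 (log2 fold change -0.55, limma adjusted p = 0.028). Both DZNep samples of IARS and WARS lay below both controls. For EPRS and MARS the samples were likewise apart, and the test was not passed. EPRS, the bifunctional enzyme for glutamate and proline, had 94 and 201 in control and 57 and 106 in DZNep samples (log2 fold change -0.89, standard error 0.32, limma adjusted p = 0.058), values that were apart only after scaling. MARS, the methionyl-tRNA synthetase, had 330 and 287 against 234 and 217 (log2 fold change -0.52, limma adjusted p = 0.063). With length and GC content corrected for, both passed (limma adjusted p = 0.014 for EPRS and 6.2e-05 for MARS).

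Several of these calls changed when single samples were left out of the main fit, which does not use the replicate numbers. The shEZH2 samples enter the DZNep comparison only through the shared estimate of spread and the scaling. With the replicate number as a block, DARS, IARS, WARS and QARS were called lower (limma adjusted p = 0.0022, 0.0031, 0.0059 and 9.0e-05). DARS and IARS were no longer called without Ctrl replicate 2, DZNep replicate 1, shEZH2 replicate 1 or shEZH2 replicate 2, with limma adjusted p-values of up to 0.16 and 0.11. WARS lost its call when any 1 sample other than DZNep replicate 1 was left out (limma adjusted p up to 0.099), and QARS lost it without Ctrl replicate 1 or DZNep replicate 2 (limma adjusted p up to 0.079). AARS, CARS, FARSB and LARS stayed called whichever of the 6 samples was left out.

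HARS, the histidyl-tRNA synthetase, was the 1 cytosolic gene that rose with DZNep (chr5:140673035-140691537, minus strand). Its values were 109 and 99 in control and 224 and 252 in DZNep samples, a 2.17-fold difference with no overlap (log2 fold change 1.11, standard error 0.17, n = 2, limma adjusted p = 0.0016). SARS, the seryl-tRNA synthetase, had 603 and 521 against 710 and 758 and did not pass the test (log2 fold change 0.32, limma adjusted p = 0.19). The genes for lysine, glycine, arginine, valine, threonine, asparagine and tyrosine had overlapping groups. KARS had 87 and 96 in control against 88 and 105 in DZNep samples. GARS had 87 and 107 against 91 and 103. RARS had 104 and 137 against 110 and 170. Their log2 fold changes were 0.00, -0.07 and 0.12. VARS had 256 and 192 against 305 and 227. TARS had 133 and 209 against 117 and 206. NARS had 46 and 80 against 34 and 76, and in all of these genes the spread within the control group was as large as the difference between the groups. YARS had 184 and 180 against 180 and 166 (log2 fold change -0.15, limma adjusted p = 0.54).

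The cytosolic genes called lower lay both inside and outside the complex. Of the 8 complex synthetases 4 were lower and none was higher (median -0.60), and of the 12 others 4 were lower and 1 was higher (median -0.21). The scaffold proteins were not called in either treatment by limma, where none had an unadjusted p under 0.05. With length and GC content corrected for, AIMP2 was lower (log2 fold change -0.65, limma adjusted p = 0.00051) and EEF1E1 higher (log2 fold change 0.38, limma adjusted p = 0.022) with DZNep. As deposited, AIMP1 had 20 and 32 in Ctrl, 19 and 34 in DZNep, then 25 and 22 in shEZH2 samples. AIMP2 had 79 and 61, 61 and 56, and 81 and 81. EEF1E1 (AIMP3) had 32 and 47, 33 and 59, and 36 and 37. Of their exonic bases, 44.4% in AIMP2 lie under EIF2AK1 on the opposite strand and 37.5% in EEF1E1 under a readthrough gene on the same strand. By catalytic fold, 5 of the 9 class I and 3 of the 10 class II cytosolic genes were lower. These subsets are small, 20.4% of all tested genes were lower, and no difference between subsets was tested. Of the 7 cytosolic genes with the CARE-type match all had negative values with DZNep (median -0.52, 3 called lower), and of the 9 with a window and no match 5 had negative values (median -0.25, 3 called lower and 1 higher). ATF4 itself went the other way, from 254 and 248 in control to 430 and 489 in DZNep samples (log2 fold change 0.80, limma adjusted p = 0.0053). Its transcript level says nothing of its protein, which is set largely at translation.

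The mitochondrial set held the largest increases among the members. VARS2, the mitochondrial valyl-tRNA synthetase (chr6:30914205-30926459, plus strand), had 20 and 14 in control and 114 and 97 in DZNep samples. Both DZNep samples lay above both controls, and the fitted group means differed 5.70-fold (log2 fold change 2.51, standard error 0.26, n = 2, limma adjusted p = 0.00037). In GENCODE v44 a long non-coding gene on the same strand covers 100% of the exonic bases of VARS2, so reads of these 2 genes cannot be told apart. YARS2, the mitochondrial tyrosyl-tRNA synthetase (chr12:32727490-32755897, minus strand), had 26 and 29 in control and 77 and 93 in DZNep samples (log2 fold change 1.52, standard error 0.16, n = 2, limma adjusted p = 0.00039). AARS2, the mitochondrial alanyl-tRNA synthetase (chr6:44298731-44313347, minus strand), had 23 and 22 against 70 and 60 (log2 fold change 1.42, standard error 0.21, n = 2, limma adjusted p = 0.0015). MARS2, the mitochondrial methionyl-tRNA synthetase (chr2:197705369-197708395, plus strand), is encoded without introns and had 12 and 11 against 27 and 36 (log2 fold change 1.30, standard error 0.20, n = 2, limma adjusted p = 0.0017). For these 4 genes the groups did not overlap. An antisense non-coding gene covers 18.3% of the exonic bases of YARS2. NARS2, the mitochondrial asparaginyl-tRNA synthetase, rose less, from 28 and 34 to 42 and 53 (log2 fold change 0.53, limma adjusted p = 0.036). Its call was lost whichever of the 6 samples was left out, and it stayed with the replicate number as a block (limma adjusted p = 0.017).

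The enzymes for arginine, isoleucine and histidine fell in the mitochondrial set. RARS2, the mitochondrial arginyl-tRNA synthetase (chr6:87513459-87590028, minus strand), had 66 and 90 in control and 25 and 41 in DZNep samples, all of the latter below the former (log2 fold change -1.31, standard error 0.21, n = 2, limma adjusted p = 0.0020). IARS2 had 81 and 125 against 49 and 74 (log2 fold change -0.80, limma adjusted p = 0.017). HARS2 had 32 and 41 against 21 and 26 (log2 fold change -0.68, limma adjusted p = 0.019). IARS2 was no longer called without Ctrl replicate 2 or DZNep replicate 1, nor was HARS2 without these or either shEZH2 replicate. With the replicate number as a block IARS2 and HARS2 were called lower (limma adjusted p = 0.00015 and 0.0031). The other mitochondrial genes did not pass the test. CARS2 had 69 and 63 against 93 and 90, and FARS2 had 47 and 37 against 60 and 61, both without overlap (limma adjusted p = 0.12 each). EARS2 had 41 and 43 against 41 and 48. LARS2 had 62 and 51 against 60 and 70. TARS2 had 44 and 39 against 50 and 48. WARS2 had 27 and 37 against 29 and 44. In these 4 genes the log2 fold change lay between 0.01 and 0.17. SARS2 had 26 and 23 against 23 and 16, and 77.5% of its exonic bases lie under a readthrough gene on the same strand.

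**Figure D2:**
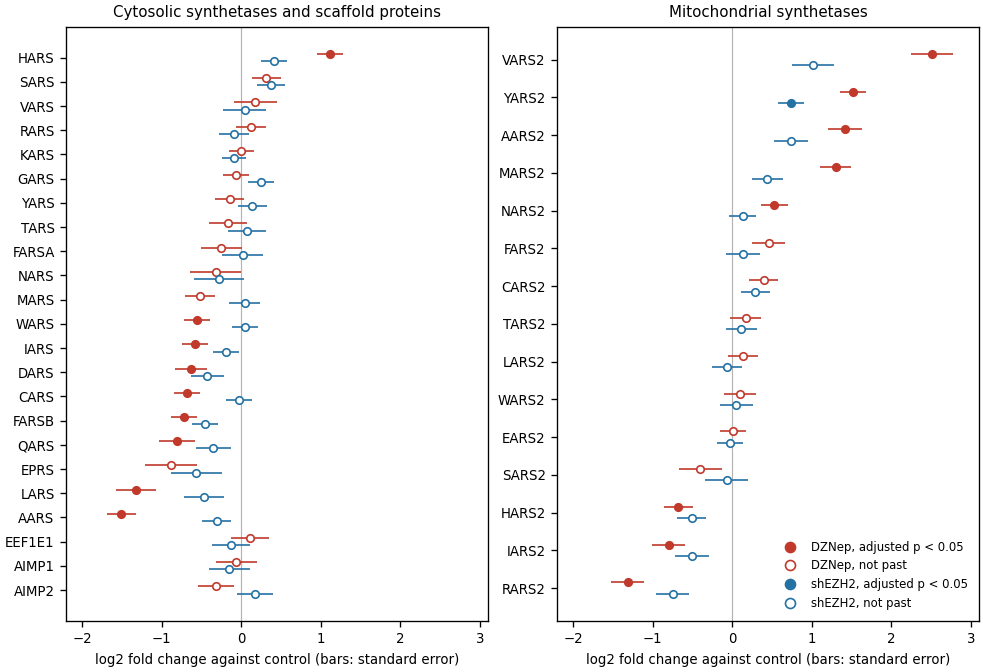
log2 fold change of each tested member against control with DZNep (red) and shEZH2 (blue), with the standard error from limma as bars and filled symbols where the adjusted p was under 0.05. With DZNep 9 cytosolic and 8 mitochondrial symbols are filled, and with shEZH2 only that of YARS2.

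With EZH2 silencing the same genes were measured against the same control samples, so the values of the treatments are given side by side and not as independent comparisons. None of the 20 cytosolic genes was called by limma, where 3.91% of all tested genes were called higher and 4.53% lower. Of the 15 mitochondrial genes YARS2 was called higher. An unadjusted limma p under 0.05 was found in 2 cytosolic genes (FARSB and HARS) and 6 mitochondrial genes, against 2731 of all 9671 tested genes. By the rule of the study's methods 1 member passed (VARS2), where 5.30% of all genes did. The median log2 fold change was -0.06 in the cytosolic and 0.11 in the mitochondrial set, against -0.01 over all genes. The mitochondrial count depended on single samples: it fell without Ctrl replicate 2 or either shEZH2 replicate, where YARS2 was no longer called. It rose without Ctrl replicate 1 or either DZNep replicate. Calls over all tested genes fell and rose in the same fits, so these shifts do not set the members apart. In the cytosolic set a call appeared without Ctrl replicate 1, where more of all tested genes were called as well.

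The mitochondrial genes with the largest values were those that had risen most with DZNep. VARS2 had 35 and 37 in shEZH2 samples, both above the controls at 20 and 14 (log2 fold change 1.01, standard error 0.26, n = 2, limma adjusted p = 0.052). YARS2 had 48 and 48 against 26 and 29 (log2 fold change 0.74, standard error 0.16, n = 2, limma adjusted p = 0.033). AARS2 had 39 and 40 against 23 and 22 (log2 fold change 0.74, standard error 0.21, n = 2, limma adjusted p = 0.065).

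MARS2 had 16 and 17 in shEZH2 samples (log2 fold change 0.44, limma adjusted p = 0.19), and CARS2 had 85 and 82 (log2 fold change 0.29, limma adjusted p = 0.34). At the other end, RARS2 had 47 and 47 (log2 fold change -0.75, limma adjusted p = 0.061). HARS2 had 25 and 27 (log2 fold change -0.51, limma adjusted p = 0.11), and IARS2 had 73 and 73 (log2 fold change -0.51, limma adjusted p = 0.16). For each of these 3 genes, none of them called, both shEZH2 samples lay below both controls, which is a description and not a test. SARS2, with 24 and 24, and LARS2, with 56 and 55, stayed within the control values. EARS2 had 44 and 41, FARS2 47 and 48, NARS2 36 and 34, TARS2 45 and 48, and WARS2 36 and 32, all with log2 fold changes between -0.03 and 0.14.

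Among the cytosolic genes with shEZH2, HARS had the highest log2 fold change and EPRS the lowest. HARS had 148 and 139 against 109 and 99 in control (log2 fold change 0.41, limma adjusted p = 0.15), and SARS had 735 and 767 (log2 fold change 0.37, limma adjusted p = 0.22). GARS had 114 and 123, above both controls (log2 fold change 0.24), YARS had 206 and 209 (0.14), and TARS had 177 and 185, between its controls (0.07). EPRS had 91 and 101 (log2 fold change -0.56, limma adjusted p = 0.29). LARS had 163 and 175 (log2 fold change -0.47, limma adjusted p = 0.26). FARSB had 45 and 44 (log2 fold change -0.46, limma adjusted p = 0.11). DARS, with 78 and 77, and QARS, with 302 and 298, also lay below both controls (log2 fold changes -0.43 and -0.35). AARS, which had fallen most with DZNep, had 480 and 488 in shEZH2 samples, below the controls by a log2 fold change of -0.31 (limma adjusted p = 0.29). The remaining cytosolic genes had log2 fold changes between -0.28 and 0.05, with 141 and 151 for CARS, 230 and 245 for IARS, 324 and 332 for MARS and 128 and 138 for WARS. NARS had 49 and 54, RARS 114 and 118, KARS 88 and 89, VARS 251 and 222, and FARSA 67 and 68.

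The difference between the treatments was tested directly, shEZH2 against DZNep. AARS was higher in shEZH2 samples by 1.20 on the log2 scale (standard error 0.18, limma adjusted p = 0.010), and CARS by 0.66 (limma adjusted p = 0.045), where 4.88% of all tested genes were called higher. Where 4.42% of all genes were called lower, 4 of the members were: VARS2 by a log2 difference of -1.50 (limma adjusted p = 0.016), MARS2 by -0.86 (limma adjusted p = 0.036), YARS2 by -0.78 (limma adjusted p = 0.026) and HARS by -0.70 (limma adjusted p = 0.041). Each of these 6 genes had a smaller absolute fold change against control with shEZH2 than with DZNep. By the rule of the study's methods AARS and VARS2 differed, where 5.52% of all genes did. For LARS and RARS2 the differences of 0.86 and 0.56 did not pass the test (limma adjusted p = 0.069 and 0.13), which does not show that the treatments acted alike on them. The median difference was 0.28 in the cytosolic and -0.11 in the mitochondrial set. These calls depended on single samples, and all were lost without shEZH2 replicate 1 or without shEZH2 replicate 2. Those of CARS, HARS, MARS2 and YARS2 were also lost without DZNep replicate 1 or without DZNep replicate 2. Over all tested genes the calls also fell without a shEZH2 replicate. Without Ctrl replicate 1 or Ctrl replicate 2 more cytosolic genes were called, and more of all tested genes as well.

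For 15 amino acids a cytosolic and a mitochondrial member were both tested, in 16 pairs because FARS2 was paired with both subunits of the cytosolic enzyme. PARS2 was not tested, so proline has no pair here. With DZNep the mitochondrial gene gained on its cytosolic partner in 12 of 16 pairs and lost in 4. The counts were the same with shEZH2, measured against the same controls. The smallest gains with shEZH2 were close to no change, with a log2 difference of 0.0006 for WARS2 to WARS and 0.0456 for TARS2 to TARS. The widest separation was at alanine. The ratio of AARS2 to AARS was 0.0390 and 0.0385 in Ctrl, 0.315 and 0.291 in DZNep, then 0.0813 and 0.0820 in shEZH2 samples. The ratio was therefore 7.60-fold higher with DZNep and 2.07-fold higher with shEZH2 after fitting, and all 6 samples were ordered by group. For valine the ratio of VARS2 to VARS was 0.0781 and 0.0729 in Ctrl, 0.374 and 0.427 in DZNep, then 0.139 and 0.167 in shEZH2 samples, a 5.05-fold and a 1.96-fold change. For methionine the ratio of MARS2 to MARS was 0.0364 and 0.0383, then 0.115 and 0.166, then 0.0494 and 0.0512, a 3.52-fold and a 1.32-fold change. Since the files do not say whether values are per transcript length, the ratios serve to compare samples and not the abundance of the partners, and the changes in ratio were not tested.

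**Figure D3:**
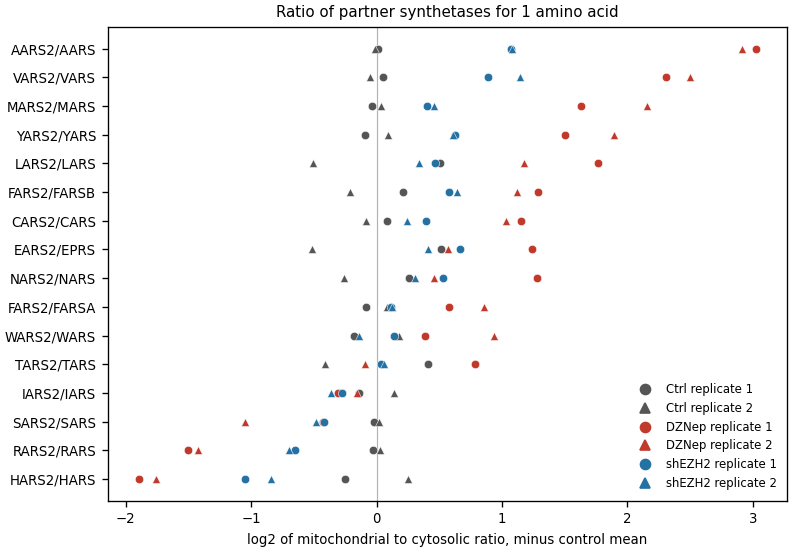
log2 of the ratio of the mitochondrial to the cytosolic enzyme for the same amino acid in each sample, minus the control mean, for 16 pairs. In the alanine pair all DZNep samples lie to the right of the shEZH2 samples and these to the right of the controls, and in the histidine and arginine pairs the order is reversed.

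Among the 4 pairs in which the mitochondrial gene lost, the change with DZNep was largest at histidine. The ratio of HARS2 to HARS was 0.294 and 0.414 in Ctrl, 0.0938 and 0.103 in DZNep, and 0.169 and 0.194 in shEZH2 samples, a change to 0.288 and 0.527 of the control ratio. As given above, HARS rose and HARS2 fell with DZNep although their start sites share the interval on chromosome 5 whose ETS cores are printed. In GENCODE v44 the gene bodies overlap by 108 bases on opposite strands, 11.3% of the exonic bases of HARS lie under WDR55, and 9.52% of those of HARS2 lie under HARS1 and ZMAT2. The libraries were stranded, but the sources used here do not say whether strand was used in counting, so reads in these overlaps cannot be assigned with certainty. Arginine followed the same order, with ratios of RARS2 to RARS of 0.635 and 0.657 in Ctrl, 0.227 and 0.241 in DZNep, then 0.412 and 0.398 in shEZH2 samples. The other pairs that lost were serine and isoleucine, with ratio changes of 0.608 and 0.855 with DZNep.

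Samples differed in how their values followed GC content, within groups as well as between them. The correlation across genes between a sample's log2 deviation and GC content was 0.13 and -0.46 in Ctrl, 0.42 and -0.26 in DZNep, then 0.25 and 0.30 in shEZH2 samples. Over the 38 tested members, the Spearman correlation of the log2 fold change with GC content was 0.28 with DZNep and 0.49 with shEZH2, and over all tested genes 0.25 and 0.35, as a description across genes that share the same libraries. VARS2 has a GC content of 59.9% and AARS2 of 57.7%, while RARS2 has 41.8% and LARS 41.4%, but AARS, which fell, has 53.3%. Once length and GC content were corrected for, the DZNep changes were 2.29 for VARS2, 1.22 for YARS2, 1.23 for AARS2, -1.81 for AARS, -1.09 for LARS and -1.22 for RARS2 on the log2 scale. The cytosolic set then had 1 gene higher and 11 lower, and the mitochondrial set 5 higher and 4 lower with a median of 0.02, where 59.96% of all genes were called. With shEZH2, AARS and QARS were called lower among the cytosolic genes, AARS2, VARS2 and YARS2 higher and HARS2, IARS2 and RARS2 lower among the mitochondrial genes, where 32.66% of all genes were called, and the mitochondrial median was -0.05. Without Ctrl replicate 2 fewer mitochondrial genes were called with DZNep, and fewer of all tested genes were called as well.

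**Figure D4:**
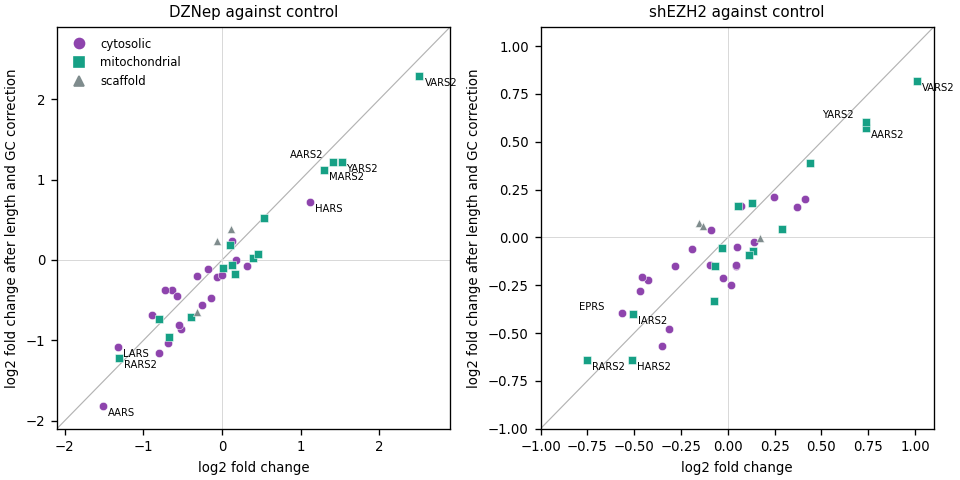
log2 fold change of each tested member before (x axis) and after (y axis) the length and GC correction, with DZNep (left) and shEZH2 (right), for cytosolic (circle), mitochondrial (square) and scaffold (triangle) members. The line marks equal values, and VARS2, AARS2, YARS2, MARS2 and HARS stay above 0 and AARS, LARS and RARS2 below 0 in both panels.

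The steps around aminoacylation were described by lists chosen for this work. TARSL2, a second cytosolic threonyl-tRNA synthetase, did not reach the minimum. Elongation factor 1, which carries charged tRNA to the ribosome, fell with DZNep in 5 of 5 subunit genes, where 20.4% of all tested genes fell, and with shEZH2 in 2 of them, EEF1B2 and EEF1D, where 4.53% fell. EEF1D, a nucleotide exchange subunit, had 2371 and 2037 in Ctrl, 542 and 477 in DZNep, then 985 and 1029 in shEZH2 samples (log2 fold changes -2.18 and -1.17, limma adjusted p = 0.00027 and 0.019). EEF1A2 and EEF1G had log2 fold changes of -1.32 and -1.08 with DZNep (limma adjusted p = 0.0043 and 0.0062).

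The tRNA maturation lists are given as counts, where 22.4% of all tested genes rose and 20.4% fell with DZNep. Of 13 tested genes of end processing, 6 rose and none fell, led by the RNase P subunits POP7 (log2 fold change 1.26), RPP25 (1.07) and POP4 (0.83). Of 11 tested modification enzymes 6 rose and 1 fell. Among them were YRDC, which makes threonylcarbamoyl adenosine (1.07), the mitochondrial methyltransferase TRMT61B (-1.03) and the queuosine enzyme QTRT1 (0.88). Of 9 genes of splicing and export 3 rose and 2 fell, with the tRNA exporter XPOT at -1.74, the endonuclease subunit TSEN15 at -1.57 and the kinase CLP1 at 1.37. XPOT had 162 and 290 in Ctrl, 51 and 89 in DZNep, then 133 and 135 in shEZH2 samples. Of 6 mitochondrial genes of amidation, formylation and delivery, GATC rose (1.26) and MTFMT fell (-0.89), and TUFM had a log2 fold change of 0.54 without passing the test. Of 5 proofreading genes PTRH2 rose (1.09) and DTD1 (-0.87) and DTD2 (-0.75) fell. With shEZH2 no gene of the end processing, modification, amidation or proofreading lists was called by limma. An unadjusted limma p under 0.05 was found in 3, 3, 1 and 3 of their genes, against 2731 of all 9671 tested genes. TSEN15 and DDX1 fell in the splicing and export list, where 4.53% of all tested genes fell.

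Of 21 tested ATF4 targets of the amino acid response outside the synthetases, 4 rose and 6 fell with DZNep (median -0.10), and 3 rose and none fell with shEZH2 (median 0.25). The share called with DZNep, 47.6%, was near the 42.75% of all tested genes, and with shEZH2 3.91% of all genes rose. STC2, a secreted glycoprotein, had 103 and 93 in Ctrl, 561 and 590 in DZNep, then 317 and 319 in shEZH2 samples (log2 fold change 2.47 with DZNep). SLC3A2, the heavy chain of the leucine transporter, rose with DZNep by 1.53, and PHGDH, the first enzyme of serine synthesis, fell by 1.46 on the log2 scale. ATF4 also rose with shEZH2, to 412 and 433 (log2 fold change 0.70, limma adjusted p = 0.036). This call was lost without Ctrl replicate 2 (limma adjusted p = 0.13), without either shEZH2 replicate (up to 0.38), with these averaged, and without the trend (0.0502), and the DZNep change of ATF4 was 0.41 after the length and GC correction. With shEZH2 the cytosolic genes with the CARE-type match had log2 fold changes between -0.31 and 0.24. None of them was called by limma with shEZH2 or had an unadjusted p under 0.05.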

How the data were processed

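Total RNA of OVCAR8 cells (6 samples, 2 each of Ctrl, DZNep and shEZH2) was sequenced after removal of ribosomal RNA as stranded libraries. The authors used fastp for trimming, STAR for alignment (GRCh38) and RSEM for quantification, per the submitters' processing notes and the study's methods, with tool versions not given in the sources used here for STAR and RSEM. The deposited table, called a count matrix, holds a score for each gene and sample: whole numbers that the authors scaled to a common total (999956 to 1000068 per sample) and rounded. The depth is thus unknown, no counting interval was computed, and rounding limits low values such as those of PARS2 and MARS2.

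Because of this unit, the planned count test was replaced by limma 3.58.1 (R 4.3.3; lmFit, eBayes with trend) on log2(value + 1) after unweighted TMM factors (trims of 30% and 5%), with all 6 samples in 1 fit of 3 group means. Genes that reached 10 in 2 or more samples were tested (9671 of 14930). Adjusted p-values are Benjamini-Hochberg over these genes and two-sided. Sample groups came from the labels. Members and lists were chosen with earlier results of these data known. Sample values were given for the 5 highest and 5 lowest members of each set in each treatment, those differing between treatments and the 3 widest partner pairs, and for the remaining members besides. From each other list the 3 tested genes with the largest absolute change with DZNep were named, and EZH2 and ATF4 beside these. EEF1B2, DDX1, the second threonyl enzyme and the promoter motifs of single genes fall outside this rule and were chosen after their values were seen. Older symbols were matched to current ones, and 39 of 39 members to GENCODE v44, whose length and GC content were corrected by lowess (span 0.3) in an alternative covering 98.05% of tested genes. Promoter windows came from RefSeq. The fit was tested on simulated data. The alternatives were other scalings, filters, pseudocounts, call rules, variance models, sample choices, the replicate number as a block, and each sample left out in turn. A related gene outside the member list is not reported here.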

Additional observations from a re-analysis of the deposited data

How the results depend on the processing

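The 28 gene results examined were those of members, EZH2 and ATF4 that were called in the main fit. Of 532 alternative values for them, 440 stayed on the same side of the threshold, 92 lost it and 0 changed sign. Because these results were selected by their call, few changes of sign could arise. Members that were not called could change sign, as SARS and TARS2 did with DZNep after the length and GC correction. AARS, CARS, HARS, LARS, AARS2, MARS2, RARS2, VARS2 and YARS2 remained called with DZNep (adjusted p) under the 19 alternatives run for single genes, which do not include the study's call rule. By that rule CARS would not be called. YARS2 with shEZH2 lost its call with the shEZH2 samples averaged, without Ctrl replicate 2 and without either shEZH2 replicate. Under it the counts were 3 cytosolic and 5 mitochondrial genes with DZNep and 1 of each set between treatments. With correction for length and GC content they were, with shEZH2, 2 cytosolic and 6 mitochondrial genes, where 32.66% of all tested genes were called. Between treatments they were 11 and 6, where 35.46% of all tested genes were called. The cytosolic median with shEZH2 was then -0.15, and the mitochondrial medians were 0.023 with DZNep and -0.053 with shEZH2. With only the groups compared, 6 cytosolic genes were called with DZNep, against 9 in the main fit. In the same setting 5 mitochondrial genes were called with DZNep and 4 with shEZH2, and 5 cytosolic genes between treatments. Of all tested genes 1617 were then called higher and 1390 lower with DZNep, 850 and 704 with shEZH2, and 745 and 696 between treatments. With the shEZH2 samples averaged, the mitochondrial call with shEZH2 and the calls of both sets between treatments were lost. Fewer cytosolic genes were then called with DZNep than in the main fit. Calls over all tested genes fell as well. With values as deposited, 3 mitochondrial genes were called with shEZH2 and 5 cytosolic genes between treatments. Of all tested genes 812 were then called higher and 418 lower with shEZH2, and 519 and 674 between treatments. The cytosolic medians were -0.35 with DZNep and -0.0086 with shEZH2. Limma without trend and no filter each left 1 cytosolic gene between treatments. Without KARS, GARS and QARS the cytosolic median with DZNep was -0.52. The cause of these shifts was not tested. Leaving out 1 sample gave, for the cytosolic set, counts of 6 to 8 with DZNep, 0 to 1 with shEZH2 and 0 to 5 between treatments, with medians of -0.47 to -0.42, -0.12 to -0.0011 and 0.23 to 0.37. For the mitochondrial set it gave counts of 5 to 8, 0 to 4 and 0 to 3, with medians of 0.16 to 0.35, -0.049 to 0.15 and -0.18 to -0.07.

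Deviations of same-numbered samples correlated at 0.79 between Ctrl and DZNep, so these samples varied together, and the main fit does not use this. The correlation was -0.02 between Ctrl and shEZH2 and -0.04 between DZNep and shEZH2, which shows no such pairing of the shEZH2 samples. The labels give only replicate numbers, and the source of the shared deviation was not tested. With the replicate block, 11 cytosolic and 9 mitochondrial genes were called with DZNep, EPRS (limma adjusted p = 3.8e-05) and MARS (0.0088) among the former. With shEZH2, 2 cytosolic and 6 mitochondrial genes were called, and 7 and 5 between treatments. Over all 9671 tested genes the block called 2726 higher and 2693 lower with DZNep. It called 1398 higher and 1367 lower with shEZH2, and 1351 and 1215 between treatments. With the replicate block and the correction for length and GC content the counts with shEZH2 were 4 and 7, and between treatments 14 and 9. Of all tested genes 1916 were then called higher and 2171 lower with shEZH2, and 2240 and 2062 between treatments. The medians were -0.15 for the cytosolic set with shEZH2 and 0.023 (DZNep) and -0.053 (shEZH2) for the mitochondrial set. The unknown depth, the rounding to whole numbers and 2 replicates a group limit the precision most for genes at low values, such as MARS2.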
